A study of Mus musculus with 4 samples.

Results

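Immediate early genes are switched on within minutes of a stimulus without new protein synthesis, and most of them encode transcription factors that then act on later genes. The 10 genes described here, Fos, Fosb, Jun, Junb, Egr1, Egr2, Egr3, Ier2, Atf3 and Nr4a1, were chosen by name as the rows of the deposited expression table that carry these symbols, and all 10 were found among its 17780 genes. Kinase cascades such as the ERK pathway act through serum response factor and CREB at the promoters of these genes, and their transcripts are short-lived, so that their level in a tissue follows recent signalling. In the lung they are known to respond to injury, stretch, growth factors and thrombin, and also to handling of the tissue.

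The study asked whether dabigatran, an oral thrombin inhibitor, counters the lung toxicity of amiodarone, an anti-arrhythmic drug. Lung RNA of male C57BL/6J mice, 6 to 7 weeks old at purchase, was sequenced as 1 library from each of 4 groups, and the mice received vehicle (0.5% carboxymethylcellulose), amiodarone at 300 mg per kg, dabigatran etexilate at 60 mg per kg, or amiodarone + dabigatran (called the combination here). All groups were dosed by mouth 5 times per week for 4 weeks. The labels give 28 days of treatment, and the methods give day 26 for the collection of the lungs. Values are FPKM, fragment counts scaled to transcript length and library size, which allow levels of different genes to be compared. Because each group has a library count of 1, differences between animals could not be tested, and p-values are not given. Each ratio is followed by a 95% interval (exact Clopper-Pearson) from the estimated reads of the 2 libraries compared, which covers counting error only and compares libraries rather than treatments.

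The libraries held 17498486 to 18903401 estimated reads. Lung markers were present in each of them, since 6 alveolar type 2 cell genes, the surfactant genes among them, summed to between 24928 and 26811 FPKM. Markers of other cells differed between libraries. The 6 neutrophil genes summed to 91.1, 594.7, 67.9 and 429.9 FPKM in the vehicle, amiodarone, dabigatran and combination libraries, and 8 macrophage genes to 3488, 5078, 3787 and 4816 FPKM in the same order. Lyz2 alone made up 3396, 4907, 3693 and 4618 FPKM of these macrophage sums. Against amiodarone, 2 of the 8 macrophage genes were lower in the combination, and the median log2 ratio of the 8 was 0.20. The 5 red blood cell genes summed to 15785, 21407, 17537 and 8524 FPKM, lowest with amiodarone + dabigatran. The 7 cardiac muscle genes, which are found in a lung sample where it includes muscle of the pulmonary veins or heart, summed to 1839, 977.0, 1267 and 885.4 FPKM. In bulk tissue, fewer cells of a type and less RNA per cell cannot be told apart.

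Promoter sequences were taken from RefSeq (GRCm38.p6), and those of 7 of the 10 genes were searched. No promoter of Egr1, Egr3 or Ier2 was searched, so nothing is said of their motifs. The 250 bases before the annotated start were searched on both strands for the core of the cAMP response element (TGACG) and its full form (TGACGTCA, which contains the core), the AP-1 site (TGANTCA), the TATA box (TATAAA), the EGR site (GCGNGGGCG) and the CArG box that serum response factor binds. The core TGACG was in a window of 6 of the 7 genes, all but Jun, and in 17.8% of the 32851 promoter windows of all genes. Egr2 has 5 annotated starts and so 5 chances to match. The windows of Egr2 and Nr4a1 lie inside the spans of these genes, so their distances are from annotated starts within the gene. Bases before those 2 spans were not searched. A CArG box was found for Egr2 (1.47% of all windows), an EGR site for Fosb and Nr4a1 (4.70%) and a TATA box for Fos (12.4%). The full element TGACGTCA (1.55%) and the AP-1 site (6.75%) were found in none of the 7 genes. A match is a description of the letters and not of binding. Motifs farther than 250 bases before a start were not searched, so an absence holds for the window only. The windows of the genes with the widest and the narrowest range of levels are printed with those of Fos, Egr2 and Atf3 so that the sequences can be set beside the values, with the matched motifs in capitals. They are chr15:101266596-101266845 (+ strand) for Nr4a1, chr7:19310046-19310295 (- strand) for Fosb, chr12:85473640-85473889 (+ strand) for Fos, chr10:67537619-67537868 (+ strand) for Egr2, chr1:191183334-191183583 (- strand) for Atf3 and chr4:95052223-95052472 (- strand) for Jun.
Nr4a1: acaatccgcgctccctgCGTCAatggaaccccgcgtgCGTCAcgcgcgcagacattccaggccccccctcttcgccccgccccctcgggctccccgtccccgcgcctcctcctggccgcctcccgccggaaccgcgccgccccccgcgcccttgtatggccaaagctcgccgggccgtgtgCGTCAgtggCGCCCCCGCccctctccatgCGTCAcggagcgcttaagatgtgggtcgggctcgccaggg
Fosb: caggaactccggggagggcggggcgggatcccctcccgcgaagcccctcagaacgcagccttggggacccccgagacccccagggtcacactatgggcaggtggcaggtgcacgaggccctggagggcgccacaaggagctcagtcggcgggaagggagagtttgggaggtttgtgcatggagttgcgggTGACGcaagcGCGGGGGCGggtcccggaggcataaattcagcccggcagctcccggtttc
Fos: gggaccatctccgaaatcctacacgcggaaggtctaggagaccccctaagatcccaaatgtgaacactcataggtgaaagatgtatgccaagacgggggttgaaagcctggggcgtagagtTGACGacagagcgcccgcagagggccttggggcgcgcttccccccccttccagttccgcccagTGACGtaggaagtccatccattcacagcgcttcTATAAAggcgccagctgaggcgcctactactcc
Egr2: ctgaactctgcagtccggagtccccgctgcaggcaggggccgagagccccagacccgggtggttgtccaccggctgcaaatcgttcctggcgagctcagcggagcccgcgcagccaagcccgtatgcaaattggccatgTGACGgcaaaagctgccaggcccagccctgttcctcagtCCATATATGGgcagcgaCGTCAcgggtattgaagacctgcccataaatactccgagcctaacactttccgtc
Atf3: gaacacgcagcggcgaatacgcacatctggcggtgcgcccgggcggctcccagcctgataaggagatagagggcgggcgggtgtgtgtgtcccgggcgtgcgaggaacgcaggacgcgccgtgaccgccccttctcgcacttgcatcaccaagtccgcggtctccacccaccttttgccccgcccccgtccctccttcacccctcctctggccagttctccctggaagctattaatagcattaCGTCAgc
Jun: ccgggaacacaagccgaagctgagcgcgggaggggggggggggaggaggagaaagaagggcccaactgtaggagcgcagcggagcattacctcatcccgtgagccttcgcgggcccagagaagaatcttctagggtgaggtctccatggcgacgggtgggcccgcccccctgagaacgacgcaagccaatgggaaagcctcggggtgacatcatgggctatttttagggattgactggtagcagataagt
The window of Nr4a1, the gene with the widest range of levels, held 4 copies of TGACG, each on the reverse strand (CGTCA as printed), from 233 to 36 bases before the start, and an EGR site between them. Fosb held 1 copy from 60 to 56 bases before its start. Fos held 2 copies, the nearer from 66 to 62 bases before the start, and its TATA box began 33 bases before it. Atf3 held 1 copy that ended 3 bases before the start. The window of Jun, whose level varied least, held none of these motifs.

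The genes are short and, apart from Junb and Ier2, lie on different chromosomes (GRCm38.p6). Their spans had a median of 4524 bases, from 1522 for Ier2 to 20894 for Nr4a1, against a median of 23629 bases over the 13144 genes with a position that average 1 FPKM or more. Of the AP-1 genes, Fos lies on chromosome 12 from 85473890 to 85477274, Fosb on chromosome 7 from 19302696 to 19310118, Jun on chromosome 4 from 95049036 to 95052222 and Junb on chromosome 8 from 84976909 to 84978748. The zinc-finger gene Egr1 lies on chromosome 18 from 34861207 to 34864956, Egr2 on chromosome 10 from 67534469 to 67542188 and Egr3 on chromosome 14 from 70077317 to 70082613. Ier2 lies on chromosome 8 from 84661331 to 84662852, Atf3 on chromosome 1 from 191170296 to 191183333 and Nr4a1 on chromosome 15 from 101253902 to 101274795.

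All 10 genes were lowest in the amiodarone + dabigatran library, whereas 20.3% of the 13183 genes averaging 1 FPKM or more were lowest there. In 7 of the 10 (Fos, Fosb, Egr1, Egr2, Egr3, Ier2 and Nr4a1) the dabigatran library was the highest, where 26.9% of all genes were, and 8.69% of all genes had both features. The rank of Fos is not set, at 22.24 FPKM with dabigatran and 22.19 FPKM with amiodarone. With TMM scaling its log2 ratio to vehicle was 0.05 with dabigatran and 0.11 with amiodarone. Jun, Junb and Atf3 were highest with amiodarone, though for Atf3 dabigatran was close (12.2 against 11.8 FPKM). Summed over the 10 genes, the level was 434.1, 364.5, 495.0 and 258.8 FPKM in the vehicle, amiodarone, dabigatran and combination libraries, and without Jun, the most abundant gene, it was 317.3, 230.4, 374.6 and 150.0 FPKM. The ratio of the highest to the lowest library ran from 1.23 for Jun to 7.66 for Nr4a1. The plot of levels by library shows that the combination library lay far below the others for Nr4a1, Egr1, Egr3, Fosb and Atf3 and less far for Jun, Junb, Fos, Ier2 and Egr2.

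**Figure D1:**
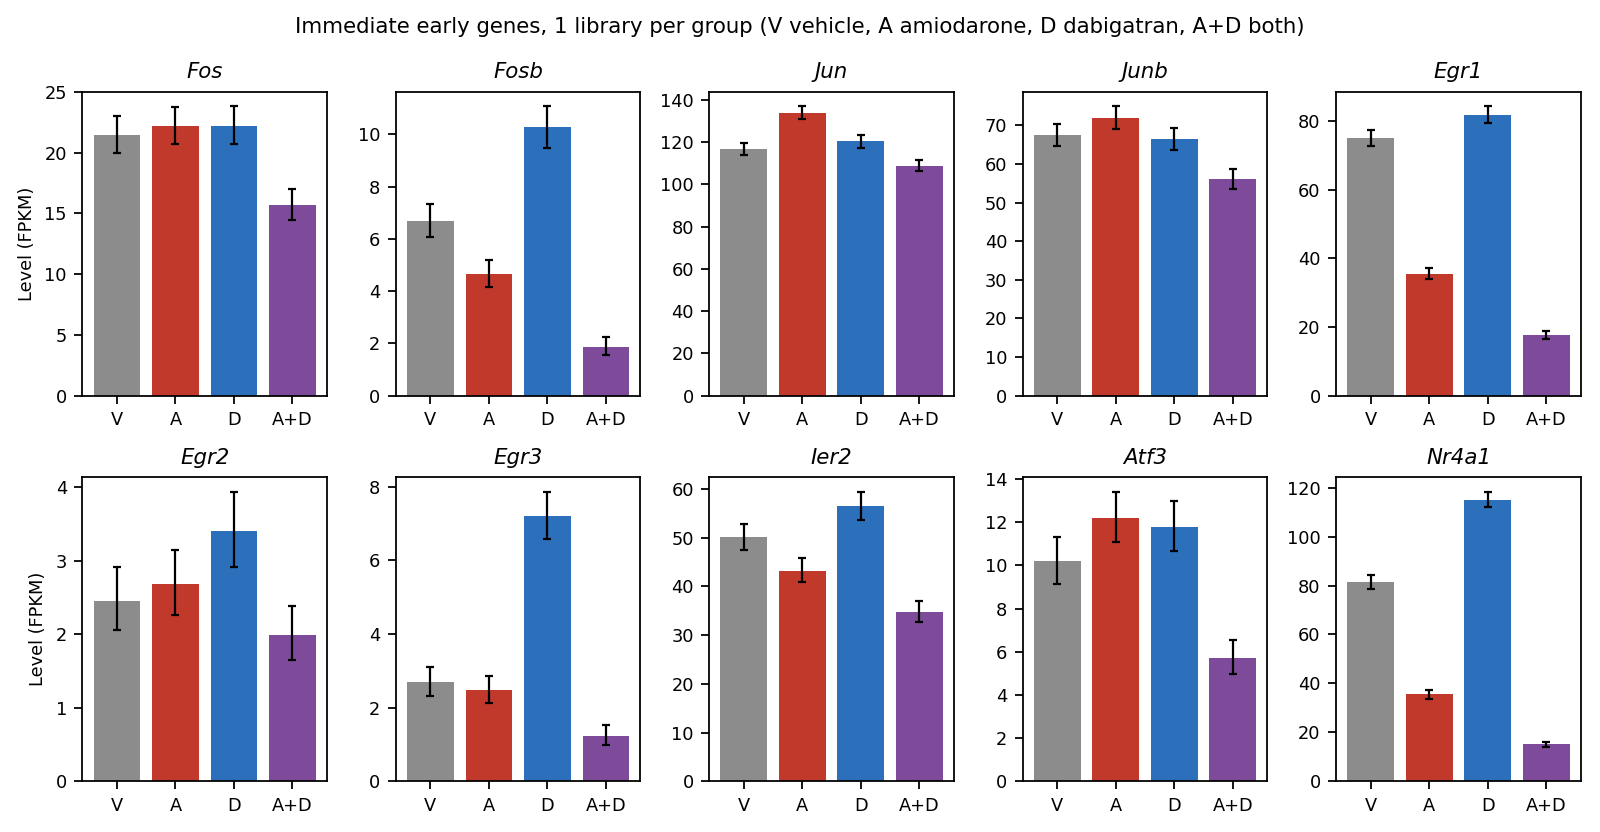
Level of each gene in FPKM (y axis, from 0) in the libraries of mice given vehicle (V), amiodarone (A), dabigatran (D) or both drugs (A+D), 1 library per bar, with 95% exact Poisson intervals of the reads. The A+D bar is the lowest in all 10 panels, at 15.0 FPKM for Nr4a1 against 115 FPKM with dabigatran.

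The Fos family supplies the partners that pair with Jun proteins to form the AP-1 factor. Fos had 21.5, 22.2, 22.2 and 15.7 FPKM in the vehicle, amiodarone, dabigatran and combination libraries. Fos thus had like levels in 3 libraries and stood lower in the combination, at 0.707 of amiodarone (95% interval 0.636 to 0.785) and 0.705 of dabigatran (0.633 to 0.784). Amiodarone over vehicle was 1.03 (0.937 to 1.14) and dabigatran over vehicle 1.04 (0.938 to 1.15), both within counting error. Fosb, which has the same bZIP structure and is much less abundant, had 6.67, 4.67, 10.3 and 1.88 FPKM in the same order of groups. Each of its 5 ratios lay beyond counting error. Fosb was lower with amiodarone than with vehicle, at a ratio of 0.700 (0.604 to 0.811), and higher with dabigatran, at 1.54 (1.36 to 1.74). With amiodarone + dabigatran it was at 0.403 of amiodarone (0.326 to 0.495) and 0.183 of dabigatran (0.151 to 0.222).

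Jun and Junb encode the Jun proteins of AP-1, and Junb can restrain the activity of Jun. Jun had the highest level of the 10 in every library, at 117, 134, 120 and 109 FPKM in the vehicle, amiodarone, dabigatran and combination libraries. It was 1.15 times its vehicle level with amiodarone (1.11 to 1.19) and 0.812 of the amiodarone level with both drugs (0.786 to 0.839). Junb had 67.5, 72.0, 66.3 and 56.0 FPKM in these libraries, and like Jun it was highest with amiodarone and lowest in the combination. Its ratio of amiodarone to vehicle was 1.07 (1.01 to 1.13) and that of the combination to amiodarone 0.778 (0.732 to 0.826). Vehicle and dabigatran did not differ beyond counting error for Jun (1.03, 0.996 to 1.07) or Junb (0.983, 0.925 to 1.04). The Jun genes therefore varied far less than Fosb, and none of their ratios reached 1.5-fold.

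The Egr genes encode zinc-finger factors that bind GC-rich sites and are induced through ERK and serum response factor. Egr1 had 75.0, 35.5, 81.9 and 17.7 FPKM in the vehicle, amiodarone, dabigatran and combination libraries. The libraries of both groups that received amiodarone lay below the other 2. Against the dabigatran library the combination was at 0.216 (0.202 to 0.231), and against amiodarone at 0.499 (0.462 to 0.538). Dabigatran alone was 1.09 times vehicle (1.05 to 1.14). Egr3, a gene whose best-known roles are in lymphocytes and muscle spindles, had 2.69, 2.48, 7.20 and 1.23 FPKM in the same order, from 88 to 490 reads. The dabigatran library stood out, at 2.68 times vehicle (2.25 to 3.19), while amiodarone and vehicle did not differ beyond counting error (0.922, 0.745 to 1.14). With both drugs Egr3 was at 0.496 of amiodarone (0.380 to 0.644) and 0.171 of dabigatran (0.135 to 0.215). Egr2, known for its part in myelination, was expressed at a low level and had 2.46, 2.68, 3.40 and 1.99 FPKM. Its estimated reads, 120.39 to 176.97 per library, are not whole numbers, as RSEM gives where reads are divided between features, and its intervals are wide. The combination was at 0.743 of amiodarone (0.576 to 0.945) and within counting error of vehicle (0.809, 0.628 to 1.04).

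Nr4a1 encodes an orphan nuclear receptor that is active without a known hormone and is induced with the Egr genes. It had 81.4, 35.5, 115 and 15.0 FPKM in the vehicle, amiodarone, dabigatran and combination libraries, the widest range of the 10 genes. Like Egr1, it was lower in both libraries with amiodarone than in both without it. The ratio was 0.436 for amiodarone over vehicle (0.411 to 0.463), 1.41 for dabigatran over vehicle (1.35 to 1.48), 0.423 for the combination over amiodarone (0.387 to 0.462) and 0.131 for the combination over dabigatran (0.120 to 0.141). Nr4a1 was the second most abundant of the 10 genes with vehicle, and with amiodarone + dabigatran it ranked below Jun, Junb, Ier2, Egr1 and Fos. Its place next to Fos there is not set, since the 95% counting intervals of the levels, drawn in the plot by library, overlap.

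Atf3 encodes a stress-inducible bZIP repressor, and Ier2 a small nuclear protein of the early response whose function is less defined. Atf3 had 10.2, 12.2, 11.8 and 5.72 FPKM in the vehicle, amiodarone, dabigatran and combination libraries. Like Fos it stood lower only with both drugs, at 0.468 of amiodarone (0.395 to 0.554), 0.486 of dabigatran (0.409 to 0.575) and 0.561 of vehicle (0.470 to 0.669). Ier2 had 50.1, 43.2, 56.4 and 34.8 FPKM in the same order. It was at 0.863 of vehicle with amiodarone (0.797 to 0.935) and at 0.804 of amiodarone with both drugs (0.738 to 0.876).

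With amiodarone alone the 10 genes lay on both sides of vehicle. Of them 5 were higher and 5 lower, where 41.1% and 58.6% of all genes were, with a median log2 ratio of -0.03, beside -0.05 over all genes. The median turned positive, to 0.01 and 0.02, under rescaling by the median gene ratio and by TMM, so it has no set direction. Egr1 and Nr4a1 were at least 1.5-fold lower, 2 of 10 where 6.59% of all genes were, and both were also at least 2-fold lower (1.52% of all genes). No member was at least 1.5-fold higher, where 5.14% of all genes were. Beyond counting error, Fosb, Ier2, Egr1 and Nr4a1 were lower (30.0% of all genes) and Jun, Junb and Atf3 higher (19.5%). Markers of several cell types differed in this comparison too. At least 1.5-fold lower were 5 of 5 B lymphocyte genes (median log2 ratio -1.57), 3 of 4 adipose genes (-1.09), 5 of 7 cardiac muscle genes (-0.84), 3 of 5 smooth muscle genes (-0.68), 3 of 5 airway epithelium genes (-0.67) and 2 of 7 fibroblast genes (-0.41). At least 1.5-fold higher were 6 of 6 neutrophil genes (2.62) and 5 of 8 macrophage genes (0.90). Their part in the levels of Egr1 and Nr4a1 was not tested.

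With dabigatran alone 9 of the 10 genes were higher than with vehicle (50.1% of all genes) and Junb was lower (49.4%), and 6 of them beyond counting error (Fosb, Egr1, Egr2, Egr3, Ier2 and Nr4a1), where 15.2% of all genes were higher beyond it. The median log2 ratio was 0.19, beside 0.00 over all genes. Egr3 and Fosb were at least 1.5-fold higher, 2 of 10 against 1.21% of all genes, and Egr3 was the only member at least 2-fold higher (0.235%). No member was at least 1.5-fold lower, where 1.30% of all genes were. Of the cell markers, 4 of 7 cardiac muscle genes were at least 1.5-fold lower (median log2 ratio -0.62), and their part in the result was not tested.

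With dabigatran added to amiodarone all 10 genes were lower than in the amiodarone library, where 41.7% of all genes were, and each was so beyond counting error (14.9% of all genes). Atf3, Egr1, Egr3, Fosb and Nr4a1 were at least 2-fold lower, 5 of 10 where 0.493% of all genes were, and the same 5 make up the count at 1.5-fold (1.80%). None was at least 1.5-fold higher, where 2.28% of all genes were. The median log2 ratio was -0.75, from -1.31 for Fosb to -0.30 for Jun, beside 0.04 over all genes. The 5 red blood cell genes were each at least 1.5-fold lower in this comparison too, with a median log2 ratio of -1.27. At least 1.5-fold higher were 4 of 5 B lymphocyte genes (0.85), 2 of 4 adipose genes (0.62) and 2 of 8 macrophage genes (0.20). The medians of the neutrophil, endothelium and smooth muscle genes were -0.38, -0.21 and 0.03. The part of these cells in the result was not tested.

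Combination over dabigatran is a comparison that shares no library with amiodarone over vehicle. All 10 genes were lower with both drugs (52.4% of all genes), each beyond counting error (23.3%), and the median log2 ratio was -0.91, beside -0.01 over all genes. At least 1.5-fold lower were Atf3, Egr1, Egr2, Egr3, Fosb, Ier2 and Nr4a1, 7 of 10 against 3.89% of all genes, and 5 of them, all but Egr2 and Ier2, were at least 2-fold lower (0.751%). None was at least 1.5-fold higher (4.14%). The red blood cell genes were again at least 1.5-fold lower in 5 of 5, at a median of -0.99, as were 3 of 7 fibroblast genes (-0.55), 2 of 4 adipose genes (-0.82), 2 of 5 B lymphocyte genes (-0.52) and 2 of 7 cardiac muscle genes (-0.47). At least 1.5-fold higher were 6 of 6 neutrophil genes (2.65) and 6 of 8 macrophage genes (1.15). Their part in this result was not tested. Against vehicle, which is the reference of 2 further comparisons, the combination was lower for all 10 genes (51.9% of all genes) and beyond counting error for 9, all but Egr2 (22.3% of all genes). The median there was -0.68, and Atf3, Egr1, Egr3, Fosb and Nr4a1 were at least 1.5-fold lower (4.13%), the latter 4 of them at least 2-fold (1.06%), and none was 1.5-fold higher (4.32%). In the same comparison 7 of 7 cardiac muscle genes (median -1.11), 5 of 5 red blood cell genes (-0.84), 3 of 5 B lymphocyte genes (-0.61), 2 of 4 adipose genes (-0.43) and 2 of 7 fibroblast genes (-0.29) were at least 1.5-fold lower. The 6 neutrophil genes (2.18) and 6 of 8 macrophage genes (1.17) were at least 1.5-fold higher, and the part of these cells was not tested. These comparisons share libraries, so the low level in the 1 amiodarone + dabigatran library enters each of the last 3. The plot of ratios shows this: the points scatter on both sides of 1 for amiodarone over vehicle and lie to its left in both panels that hold the combination.

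**Figure D2:**
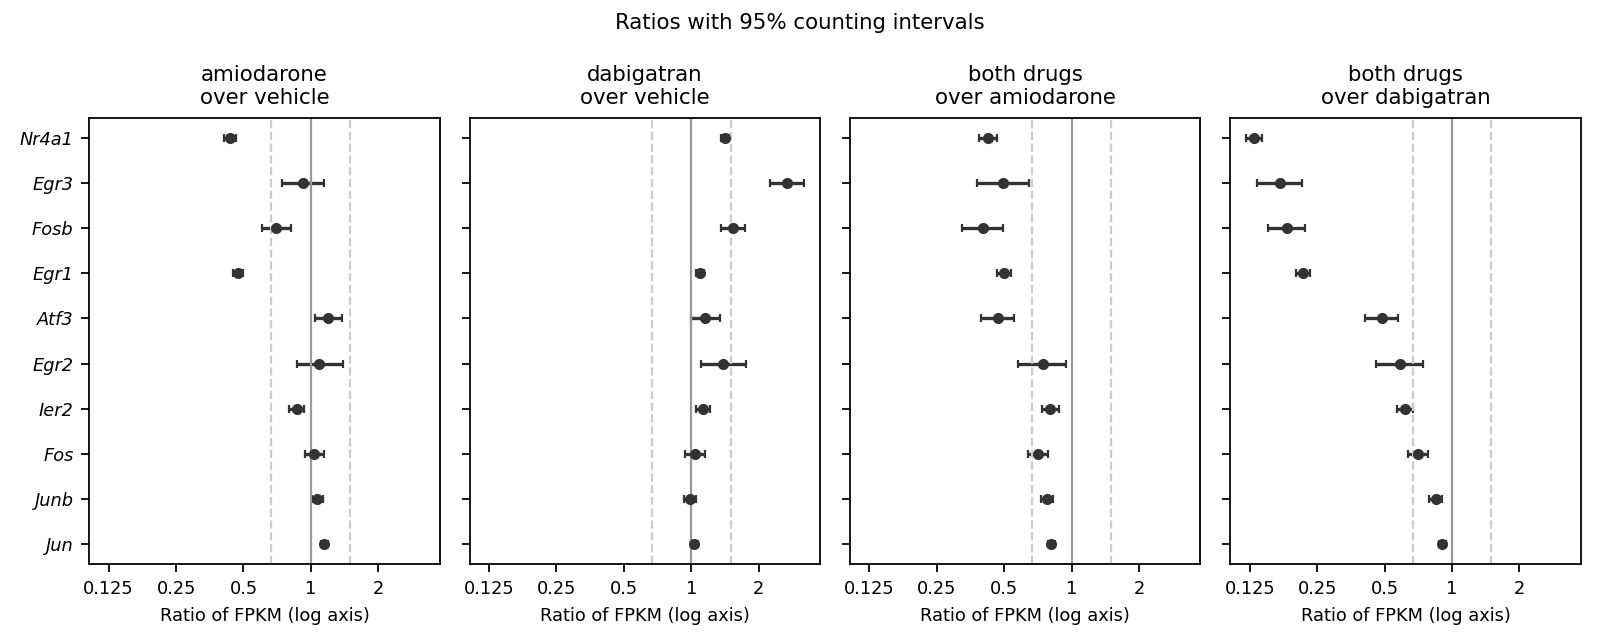
Ratio of FPKM (x axis, log scale) for each gene, ordered by its range over the libraries, with 95% counting intervals; the solid line marks 1 and the dashed lines 1.5-fold in either direction. With both drugs over dabigatran the ratios ran from 0.131 for Nr4a1 to 0.904 for Jun.

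**Figure D3:**
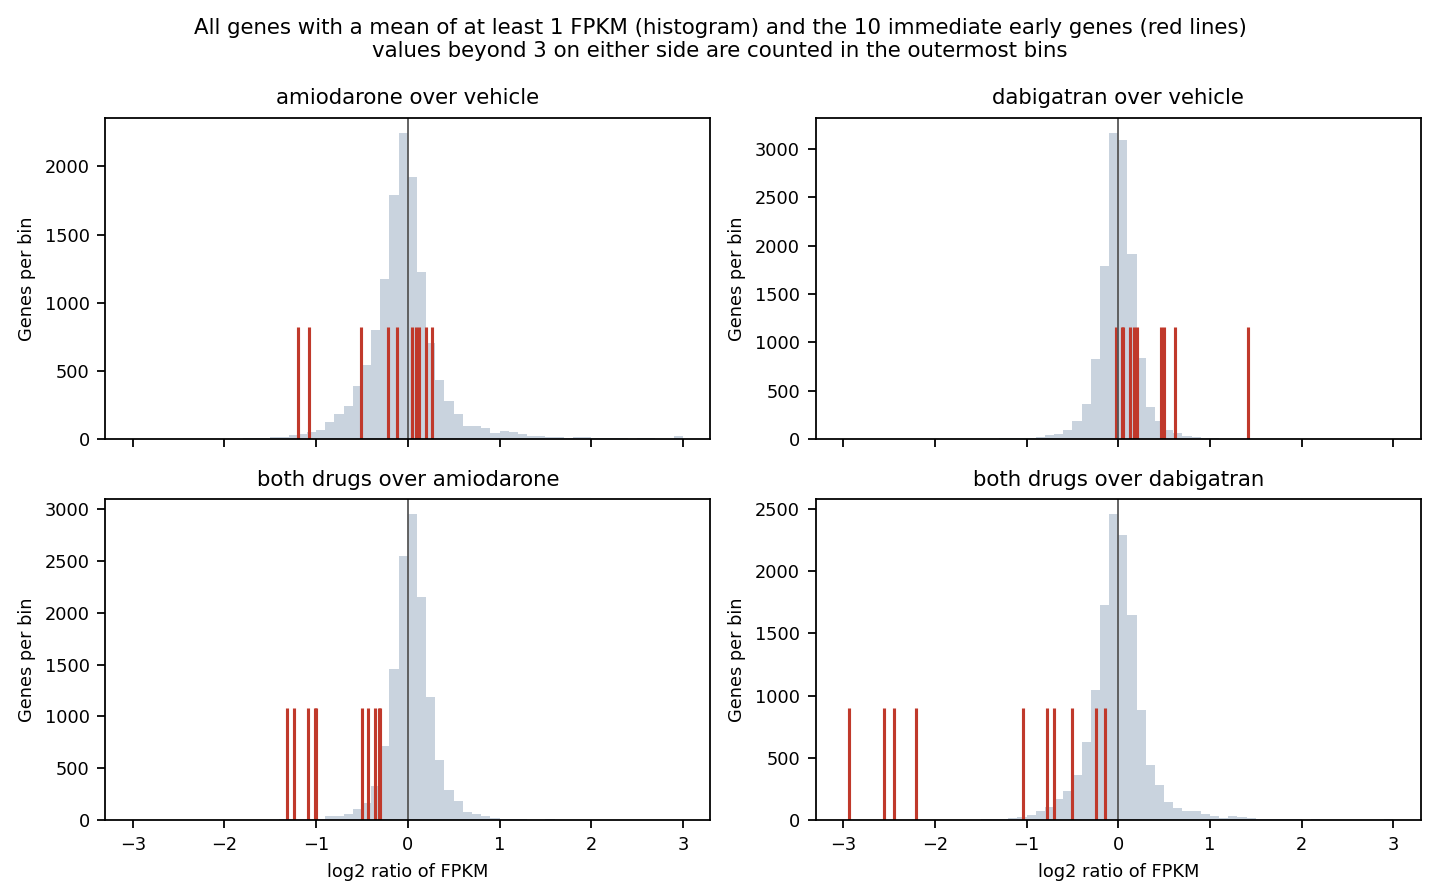
Number of genes (y axis) by log2 ratio of FPKM (x axis) for the 13183 genes that average 1 FPKM or more, with the 10 immediate early genes as red lines and genes beyond 3 on either side in the outermost bins. The red lines straddle 0 for amiodarone over vehicle and lie below it, at medians of -0.75 and -0.91, in the comparisons of both drugs with either drug.

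Related early genes, taken from lists of known members of the response, shared this pattern only in part. Of 18 other early transcription factors that average 1 FPKM or more, 5 were at least 1.5-fold higher with amiodarone than with vehicle (5.14% of all genes) and 1 was lower (6.59%). Against amiodarone, 17 of the 18 were lower in the combination (41.7% of all genes), 2 of them at least 1.5-fold (1.80%), and none was 1.5-fold higher (2.28%), with a median log2 ratio of -0.24. Against dabigatran 9 of the 18 were lower (52.4% of all genes), with 4 at least 1.5-fold higher (4.14%) and 2 at least 1.5-fold lower (3.89%). The median of the combination was -0.01 over dabigatran and 0.02 over vehicle, where the 10 members had -0.91 and -0.68. Cebpd, an acute-phase factor, had 47.1, 126, 37.1 and 95.2 FPKM in the vehicle, amiodarone, dabigatran and combination libraries. Klf4, a factor of epithelium and endothelium, had 55.0, 103, 68.5 and 71.1 FPKM, and Csrnp1 18.7, 35.2, 15.9 and 25.2 FPKM. Nfil3, a repressor of clock output genes, had 2.28, 4.98, 3.03 and 4.89 FPKM. These 4 genes were higher with amiodarone than with vehicle, where Egr1 and Nr4a1 were lower, and in the combination none of them lay below vehicle. Nfil3 did not differ beyond counting error between amiodarone and the combination (0.982, 0.794 to 1.22). The other members of the Nr4a family were named after their values were seen. Nr4a3 had 3.43, 2.13, 5.31 and 0.72 FPKM, a ratio of the combination to dabigatran of 0.136 (0.105 to 0.173), and Nr4a2 had 3.42, 4.33, 5.11 and 2.82 FPKM. Both were lowest with the combination and highest with dabigatran, as Nr4a1 was. For Nr4a2, however, the combination was within counting error of vehicle (0.825, 0.673 to 1.01). Unlike Nr4a1, Nr4a2 was higher with amiodarone than with vehicle (1.27, 1.05 to 1.53).

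Feedback inhibitors of the response include the dual-specificity phosphatases that switch off MAP kinases. Of 25 such genes, 22 were lower in the combination than in the amiodarone library (41.7% of all genes), 1 of them at least 1.5-fold (1.80%), and their median log2 ratio was -0.16. Against dabigatran 14 of the 25 were lower (52.4% of all genes), with 4 at least 1.5-fold higher (4.14%) and 3 at least 1.5-fold lower (3.89%). Their median there was -0.07, where the 10 members had -0.91. Socs3, which restrains cytokine signalling, had 12.3, 38.7, 12.6 and 26.3 FPKM in the vehicle, amiodarone, dabigatran and combination libraries. Errfi1, an inhibitor of the EGF receptor, had 64.2, 112, 54.2 and 99.8 FPKM. Rgs2, a regulator of G protein signalling, had 25.2, 14.8, 23.2 and 14.6 FPKM, low in both libraries with amiodarone. Rgs1, at 0.76, 2.22, 0.71 and 1.99 FPKM, was high in the same pair. For Rgs1 and Rgs2 the combination and amiodarone did not differ beyond counting error (0.896, 0.594 to 1.35, and 0.985, 0.893 to 1.09).

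Among 14 secreted and effector genes of the early response, 11 were lower in the combination than in the amiodarone library (41.7% of all genes), 3 of them at least 1.5-fold (1.80%), and the median log2 ratio was -0.44. Against dabigatran 8 of the 14 were lower (52.4% of all genes), 5 of them at least 1.5-fold (3.89%), and 1 was at least 1.5-fold higher (4.14%), at a median of -0.21. Cyr61, a matricellular protein gene, had 189, 89.9, 263 and 54.8 FPKM in the vehicle, amiodarone, dabigatran and combination libraries. Its ratio of the combination to dabigatran was 0.209 (0.199 to 0.219). Thbs1, which encodes thrombospondin, had 64.7, 38.6, 77.9 and 26.6 FPKM. Cyr61 and Thbs1 were lowest in the combination and highest with dabigatran. Areg, an EGF receptor ligand, had 5.27, 8.93, 4.96 and 6.38 FPKM and Ccl2, a monocyte chemokine, 1.53, 2.64, 1.05 and 1.97 FPKM, highest with amiodarone, although the intervals of Ccl2 (14 to 37 reads) all reach 1.

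The kinases and factors upstream of the early genes stood close to all genes. Of 23 genes none was at least 1.5-fold higher (2.28% of all genes) or lower (1.80%) in the combination than in amiodarone. Their median log2 ratio there was 0.02, beside 0.04 over all genes. Between amiodarone and vehicle 1 was at least 1.5-fold lower (6.59% of all genes). That gene was Mef2c, a MADS-box factor, at 8.36, 5.28, 8.69 and 5.97 FPKM in the vehicle, amiodarone, dabigatran and combination libraries. The other named genes of the list were Map2k1, the kinase MEK1, at 22.5, 26.3, 21.3 and 26.3 FPKM, Mapk8, the kinase JNK1, at 3.54, 2.99, 3.27 and 3.11 FPKM, and Mef2a at 30.7, 36.3, 32.9 and 33.4 FPKM. Transcript levels of kinases say nothing of their activity.

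Heat shock genes, which respond to protein damage, had a median log2 ratio of -0.03 between the combination and amiodarone, beside 0.04 over all genes. Of these 10 genes 1 was at least 1.5-fold lower (1.80% of all genes). Hspa1b was that gene, at 4.04, 5.35, 4.89 and 3.19 FPKM in the vehicle, amiodarone, dabigatran and combination libraries, and it has a near-identical copy in Hspa1a, between which reads are divided by estimation. The other named genes were Hspa8 at 480, 718, 465 and 564 FPKM, Hsph1 at 9.10 to 11.7 FPKM and Hspb1 at 185, 135, 174 and 179 FPKM. Of the glucocorticoid-response genes, 7 of 10 were at least 1.5-fold higher with amiodarone than with vehicle (5.14% of all genes), at a median log2 ratio of 1.09. Fkbp5, a chaperone of the glucocorticoid receptor, had 4.50, 31.2, 4.51 and 20.7 FPKM, and Zbtb16, Cdkn1a and Tsc22d3, at 5.46, 34.5 and 73.3 FPKM with vehicle, had 24.1, 94.0 and 198 FPKM with amiodarone. All 10 genes of this list were lower in the combination than with amiodarone (41.7% of all genes), 2 of them at least 1.5-fold (1.80%). Against dabigatran none of the 10 was lower (52.4% of all genes), unlike the immediate early genes. There 8 were at least 1.5-fold higher (4.14%), at a median log2 ratio of 1.02. Against vehicle 7 were at least 1.5-fold higher (4.32%), at a median of 0.79. For partners of Atf3 in the integrated stress response the median of combination over amiodarone was -0.10. None of these 10 was at least 1.5-fold higher (2.28% of all genes) or lower (1.80%). The named ones, Ddit4, Sesn2, Chac1 and Cebpg, had ratios of 1.03, 0.932, 0.954 and 0.934 there. The median of the core clock genes was -0.23, with 1 of 14 at least 1.5-fold higher (2.28% of all genes) and none lower (1.80%). Per1, a clock gene that is also an early response gene, had 23.2, 59.7, 22.6 and 46.6 FPKM, and Dbp, Per2 and Ciart had ratios of 0.832, 0.784 and 0.799 of combination to amiodarone. The part of these programmes in the levels of the immediate early genes was not tested. The plot of the lists sets the 10 genes beside them.

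**Figure D4:**
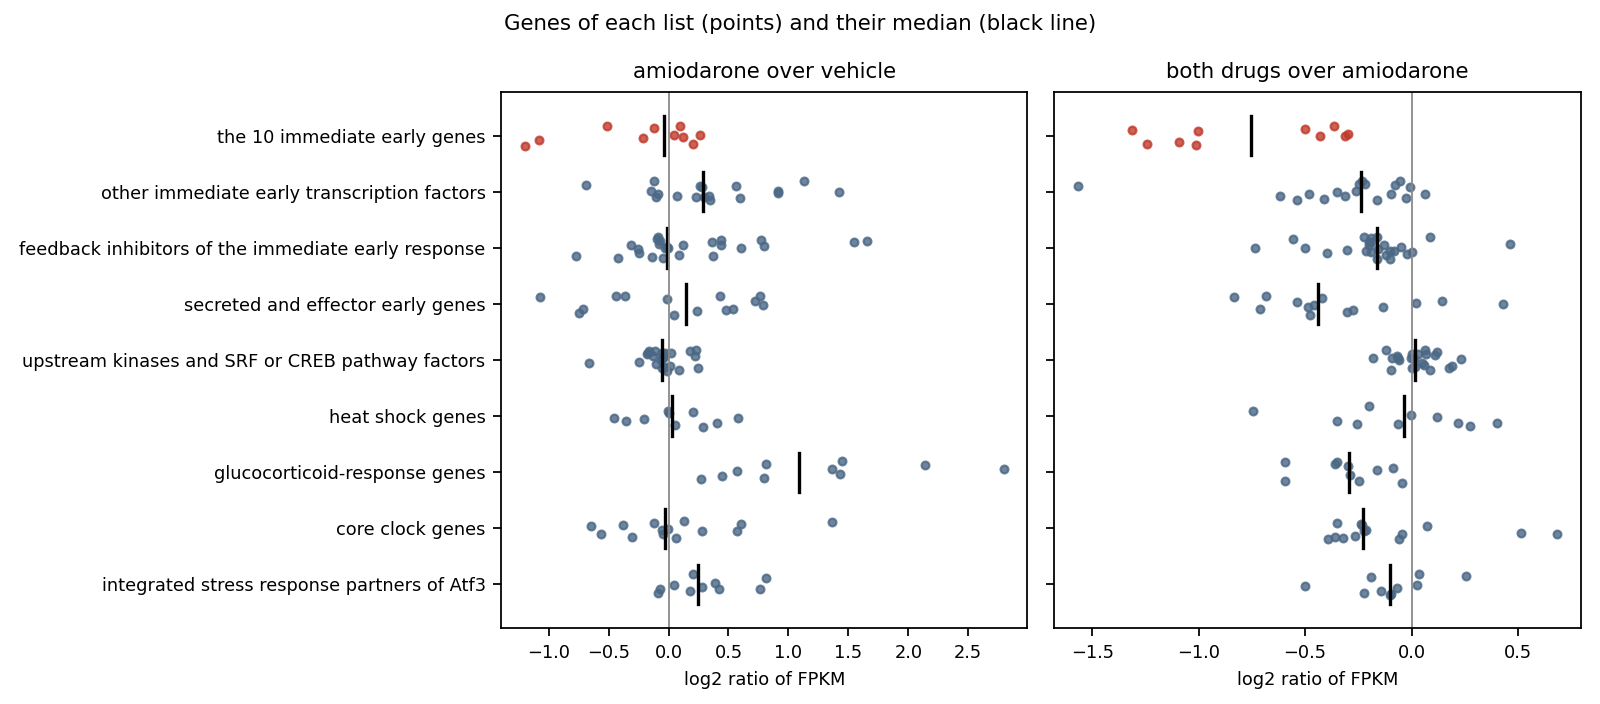
Log2 ratio of FPKM (x axis) of each gene averaging 1 FPKM or more (points, shifted up or down for visibility) in each list, with the list's median as a black line, for amiodarone over vehicle (left) and both drugs over amiodarone (right). On the right the 10 immediate early genes have a median of -0.75, and the upstream kinases and factors one of 0.02.

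The median profile of the 10 genes over the 4 libraries, each gene's log2 level minus its own mean, was 0.09, -0.01, 0.36 and -0.56 in the vehicle, amiodarone, dabigatran and combination libraries. Ier2 lay nearest to it, at a distance of 0.20, and Nr4a1 farthest, at 1.64. Among 9675 other genes averaging 5 FPKM or more, the closest by Euclidean distance over the 4 libraries included Adamts1, Spata24, Pcsk5, Thbs3, Rnd1, Gstp2, Muc5b, Klf11 and Ednrb, at 0.13 to 0.22, where the median gene lay at 0.70. Adamts1, an extracellular protease gene, was the closest and had 21.9, 20.0, 28.4 and 13.7 FPKM in the vehicle, amiodarone, dabigatran and combination libraries. The likeness rests on 4 libraries and is a description.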

How the data were processed

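Lung RNA of 4 mouse groups was sequenced by the authors with DNBseq after poly(A) selection, 1 library per group. The authors aligned reads with HISAT 2.0.4 (genome, GRCm38.p6) and Bowtie2 2.2.5 (transcripts), and RSEM 1.2.8 gave the deposited estimated counts. The deposited normalized values were read as FPKM, since reads per unit of value differed between amiodarone and vehicle by 1.07, as total reads did. The 8 deposited columns of means over 2 libraries were not used.

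Ratios are of FPKM without a pseudocount. Clopper-Pearson intervals used reads rounded to whole numbers, rescaled to FPKM (scipy 1.17.1). Intervals of the ratios of ratios used a normal approximation on the log scale, from the reads of all 4 libraries. A floor of 3 reads for a count of 0 was 1.71e-05% of the vehicle library, and no member was at 0. Members, gene lists and tests were chosen with earlier results of these data known. Named genes are the members, the 4 genes per list that differ most, in either direction on the log2 scale, between amiodarone and vehicle, and the 10 closest profiles, of which 1 is not reported here. Except for dabigatran over vehicle, cell types with only 1 marker past 1.5-fold in a comparison are not listed. Alternatives were other scalings (edgeR 4.0.16 for TMM), pseudocounts, folds and filters. The interval procedure was tested on simulated data. Positions came from RefSeq, in which 17669 identifiers matched.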

Additional observations from a re-analysis of the deposited data

Results flagged for a closer look

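In 6 genes the difference between libraries with and without dabigatran had opposite directions in the absence and presence of amiodarone. Fosb, Egr1, Egr2, Egr3, Ier2 and Nr4a1 were each higher with dabigatran than with vehicle and lower with amiodarone + dabigatran than with amiodarone, both beyond counting error, and these comparisons share no library. The ratio of the second ratio to the first was 0.262 for Fosb (95% counting interval 0.206 to 0.332), 0.456 for Egr1 (0.418 to 0.498), 0.537 for Egr2 (0.387 to 0.746), 0.185 for Egr3 (0.136 to 0.252), 0.714 for Ier2 (0.637 to 0.799) and 0.299 for Nr4a1 (0.271 to 0.330). In Jun, Junb and Atf3 the amiodarone contrast had opposite directions without and with dabigatran. Each was higher with amiodarone than with vehicle and lower with amiodarone + dabigatran than with dabigatran, with the same ratio of ratios at 0.787 for Jun (0.751 to 0.826), 0.791 for Junb (0.726 to 0.861) and 0.405 for Atf3 (0.326 to 0.504). Fos, the remaining gene, had 0.682 (0.590 to 0.787). The ratio of ratios was below 1 for all 10 genes and for 43.7% of 13182 genes, whose median was 1.03. With 1 library in each group the difference was not tested across animals, and the intervals cover counting error only.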

How the results depend on the processing

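No paired analysis was possible because each group has 1 library, and no library could be left out for the same reason. The counts of members at least 1.5-fold lower stayed within 1.5 times in all 35 recomputed counts. The count at least 1.5-fold higher with dabigatran than with vehicle was 1 in place of 2 with a pseudocount of 1 and at 2-fold. The median over the members for amiodarone over vehicle changed sign, to 0.0145 when rescaled by the median ratio and 0.0182 with TMM, and that for the combination over amiodarone was -0.56 with a pseudocount of 1. Of the ratios of single genes, 242 stayed within their counting interval, 8 moved and none changed sign beyond counting error. The share of all genes past the threshold depended on the filter and fold. At 2-fold, 2.60% were higher and 1.52% lower for amiodarone over vehicle, 0.235% and 0.250% for dabigatran over vehicle, 0.569% and 0.493% for the combination over amiodarone, 1.74% and 0.751% over dabigatran, and 1.84% and 1.06% over vehicle. With no filter, these 1.5-fold shares were 7.95% and 11.9%, 5.17% and 5.33%, 6.74% and 5.50%, 7.34% and 9.05%, and 7.59% and 9.31%. Among genes averaging 5 FPKM or more, the share lower was 3.72% for amiodarone over vehicle, 1.99% for the combination over dabigatran and 2.31% over vehicle, while 0.413% were higher and 0.310% lower for dabigatran over vehicle and 0.857% and 1.10% for the combination over amiodarone. Depth limits Egr2 and Egr3 most, at 88 to 490 reads.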
